A study of Mus musculus with 3 samples.

Results

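The transcripts of 10 matricellular glycoprotein genes (Fn1, Postn, Tnc, Tnxb, Sparc, Smoc2, Thbs1, Thbs2, Thbs4 and Vcan) were followed through the cell classes of regenerating mouse muscle. The members were the 10 listed symbols among the 32285 features of the count tables, and each symbol matched 1 feature. The study examined single cells of tibialis anterior muscle 4 days (96 h) after barium chloride was injected to kill the fibres, with groups that differ in age and in treatment with recombinant meteorin-like protein (rMETRNL). All groups were C57/BL6J mice with that injury: a young PBS group (3 to 4 months of age per the study's methods), an old PBS group and an old rMETRNL group (24 to 26 months), given PBS or rMETRNL into the muscle after the injury. Each group was 1 library, which pooled triplicate samples, so the spread between mice cannot be measured and no test between groups was possible. Every interval below covers counting error only. Values listed in 3 without labels are in the order young PBS, old PBS, old rMETRNL. The old/young ratio is the level in old PBS over that in young PBS, and the rMETRNL/PBS ratio is that in old rMETRNL over old PBS; each compares 2 libraries and the old PBS library is in both.

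Matricellular proteins are secreted into the extracellular matrix, where they act less as structural beams than as modulators of adhesion, growth factor access and matrix assembly. Fibronectin, encoded by Fn1, is the adhesive scaffold of the early wound and the ligand of many integrins, and periostin (Postn), tenascin-C (Tnc) and the thrombospondins are known for their appearance in injured tissue. In injured muscle the main matrix-making cells are the fibro/adipogenic progenitors (FAPs), mesenchymal cells that surround the fibres, together with tenocytes of the tendon and the perivascular cells. Macrophages, which clear the dead fibres at this stage, make some of these proteins too.

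The tables held raw counts of unique molecular identifiers (UMIs, each standing for 1 captured transcript) from 12168 to 14012 barcodes per library, with 179295668 to 228966697 UMIs and median counts of 12466 to 14950.5 UMIs per barcode. After filtering, 10285, 9941 and 11363 cells remained, and 8 cell classes named from marker genes had at least 50 cells in each library. Schwann/glial-like (17, 68 and 44), mature fibre-like (34, 433 and 128) and myocyte-like cells (63, 21 and 30) did not, and their levels are left out below. The names end in -like because they rest on transcripts alone, and the 10 members were left out of the genes used for clustering, so that no class was defined by them. FAP-like cells numbered 1640, 1361 and 1698 with median depths of 26059.5, 21835 and 24586.5 UMIs, and all 12 FAP markers were detected in each library. Levels are given in CPM, the UMIs of a gene per 1000000 UMIs of all cells of the class in that library. The libraries shared 58 to 80 barcodes in pairs and 13 in all 3, which is few beside the barcodes they held.

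FAP-like cells held most transcripts of 8 of the 10 genes. They carried 92.0%, 89.4% and 90.3% of all Postn UMIs, and 93.7%, 93.2% and 93.2% of those of Smoc2. Their shares of Fn1, Tnc, Sparc, Thbs2, Tnxb and Vcan lay between 75.5% and 89.5%. The other 2 genes were thrombospondins with a different main source. Macrophage/monocyte-like cells held 50.7%, 60.1% and 53.7% of Thbs1 UMIs, and tenocyte-like cells, which were 1.95%, 1.61% and 2.36% of the cells, held 70.5%, 59.2% and 70.5% of Thbs4 UMIs. The counting interval of a member's level in FAP-like cells was at most ±2.51% of the level, and in tenocyte-like cells at most ±13.6%.

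**Figure D1:**
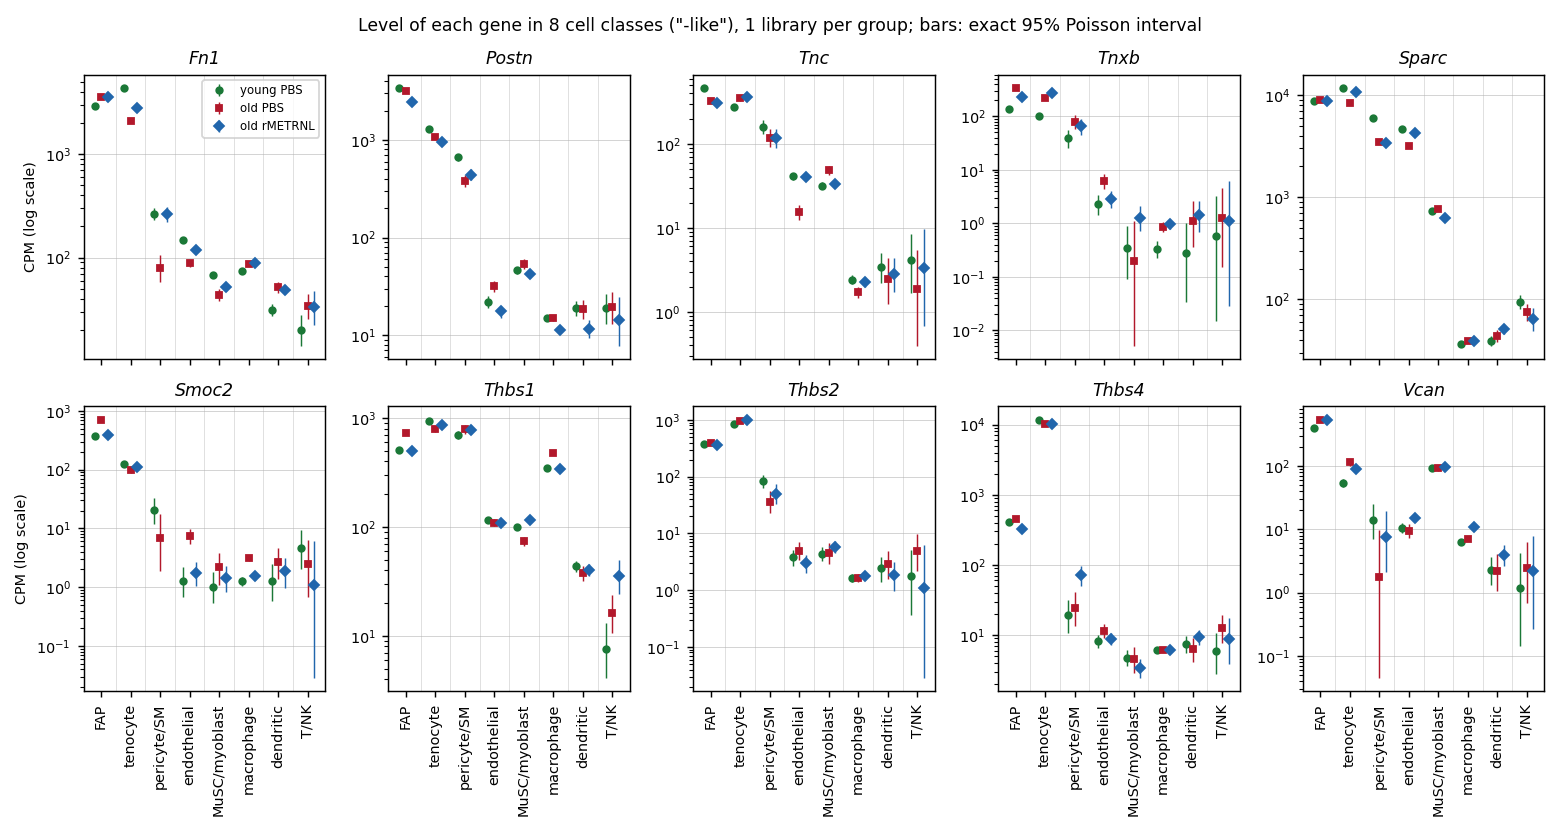
Level of each of the 10 genes in 8 cell classes, in CPM on a log axis, with 1 point per library (circles young PBS, squares old PBS, diamonds old rMETRNL) and exact 95% Poisson intervals as bars. FAP-like and tenocyte-like cells carry the highest levels of most genes, Thbs4 is 22.1 to 30.7 times higher in tenocyte-like than in FAP-like cells, and Thbs1 is at 341 to 478 CPM in macrophage/monocyte-like cells.

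Fibronectin transcripts were abundant in FAP-like cells of every library. Fn1 (ENSMUSG00000026193, chromosome 1, 71585520 to 71653200, minus strand) was at 2889 CPM in the young library, 3525 in the old PBS library and 3550.4 in the old rMETRNL library, so both old libraries lay above the young one and close to each other. The old/young ratio was 1.22 (95% interval 1.21 to 1.23) and the rMETRNL/PBS ratio 1.01 (0.999 to 1.01). In tenocyte-like cells both old libraries lay below the young one instead, with 4330.3 CPM in the young library, 2078 in the old PBS library and 2797 in the old rMETRNL library, and the old/young ratio was 0.4799 (0.464 to 0.496). The class with the highest Fn1 therefore differed, tenocyte-like in young PBS and FAP-like in both old libraries. The macrophage/monocyte marker list summed to 803, 2289 and 1187 CPM in the same tenocyte-like cells, and its part in that ratio was not tested.

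Within the FAP-like cells the Fn1 level peaked in 1 sub-cluster of the 9 larger ones, although its UMIs were spread over many. The FAP-like cells fell into 11 sub-clusters, of which 9 had at least 20 cells in each library and a 10th (the Hsd11b1-led sub-cluster) had 13, 90 and 49. The Hsd11b1-led sub-cluster also took its best score from the Inmt/Myoc/C7 markers, but the name Inmt/Myoc/C7-like is used here for the larger one led by Clu, Myoc and Inmt alone. In the Pi16/Dpp4-like sub-cluster, with 126, 148 and 209 cells and named for markers of the adventitial FAP state, Fn1 reached 8151 CPM in the young library, 6662 in the old PBS library and 6298 in the old rMETRNL library, against 1251 to 4239 CPM over the other 8. It held 17.5%, 16.4% and 18.5% of the Fn1 UMIs of the FAP-like cells. Old libraries were lower than the young one there, unlike in the FAP-like cells as a whole. Fn1 was higher in old PBS than in young PBS in 7 of the 9 sub-clusters, the exceptions being the Pi16/Dpp4-like and the Inmt/Myoc/C7-like ones.

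Periostin supports cell migration and collagen cross-linking in wounds. Postn (ENSMUSG00000027750, chromosome 3, 54361109 to 54391037, plus strand) was at 3435 CPM in the young library, 3205 in the old PBS library and 2475 in the old rMETRNL library in FAP-like cells, the highest class in all 3 libraries, and the old rMETRNL library was the lowest. Its old/young ratio was 0.933 (95% interval 0.926 to 0.941), its rMETRNL/PBS ratio 0.772 (0.766 to 0.779) and its ratio 0.721 (0.715 to 0.726) for old rMETRNL over young PBS. This last ratio was below 1 in 9 of 9 sub-clusters. The Inmt/Myoc/C7-like sub-cluster, led by Clu, Myoc and Inmt, had the lowest Postn of the 9, at 380.2 CPM in the young library, 245 in the old PBS library and 338 in the old rMETRNL library. In the Pi16/Dpp4-like sub-cluster Postn was at 3277, 1447 and 1301 CPM, with both old libraries far below the young one. Schwann/glial-like cells, left out of the classes for their few cells, held 1.46, 0.605 and 0.844 Postn UMIs per UMI of Col1a1, Col1a2 and Col3a1. FAP-like cells held 0.101, 0.0946 and 0.0780. Of the larger classes outside the FAP-like cells, Postn was found in tenocyte-like cells (1296, 1075 and 946 CPM) and pericyte/smooth muscle-like cells (664, 381 and 441 CPM). In the latter the FAP marker list summed to 6914, 3509.8 and 4400.1 CPM, highest in young PBS like Postn, and its part in the Postn level was not tested.

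The tenascins, Tnc and Tnxb, had their highest levels in different FAP-like sub-clusters. Tenascin-C is an anti-adhesive protein of embryonic and injured tissue, and tenascin-X, encoded by Tnxb, is a protein of resting connective tissue that spaces collagen fibrils. Tnc (ENSMUSG00000028364, chromosome 4, 63959785 to 64047015, minus strand) was highest in the Crabp1/Il11/Inhba-like sub-cluster, whose leading genes include Acta2 and Il11, at 1125 CPM in the young library, 703 in the old PBS library and 618 in the old rMETRNL library. It was next highest in the Notch3/Gucy1a1-led sub-cluster (798, 609.5 and 544 CPM) and in the cycling-like sub-cluster (795, 511 and 473 CPM). In the Pi16/Dpp4-like sub-cluster it was at 16.3, 18.2 and 10.7 CPM and in the Inmt/Myoc/C7-like one at 16.8, 9.47 and 8.81 CPM, so that the highest of the 9 sub-clusters exceeded the lowest by 68.8 to 74.3 times.

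Tnxb (ENSMUSG00000033327, chromosome 17, 34670535 to 34719815, plus strand) was highest where Tnc was low. Its level was 877 CPM in the young library, 1074 in the old PBS library and 836 in the old rMETRNL library in the Pi16/Dpp4-like sub-cluster and 669, 745 and 791 CPM in the Inmt/Myoc/C7-like one, the sub-clusters where Tnc was lowest. In the Crabp1/Il11/Inhba-like sub-cluster, where Tnc was highest, Tnxb was at 21.6, 60.4 and 31.9 CPM, the lowest of the 9. The highest and lowest of these 9 were 17.8 to 40.7 times apart. The Hsd11b1-led sub-cluster also had high Tnxb, at 972, 1025 and 1018 CPM from 13, 90 and 49 cells. In each of the 3 libraries, Tnc was highest and Tnxb lowest in the same sub-cluster.

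Promoter sequences of the 2 tenascin genes are shown because the sub-cluster highest in Tnc was the lowest in Tnxb, and that of Thbs4 because it was the gene most concentrated in tenocyte-like cells. Each line is the 250 bases before a RefSeq start site (GRCm38.p6), 5′ to 3′ on the gene's strand, and capitals mark matches to any of 6 short motifs searched on both strands. The first was the AP-1 motif, TGANTCA, bound by Fos and Jun proteins. The TEAD motif, GGAATG, is bound by the partners of Yap and Taz. The core promoter was searched for the letters TATAAA of the TATA box. Sp1-type factors bind the GC box, searched as GGGCGG. The E-box was searched in the form CACGTG that Myc and related proteins bind. The palindrome GTCTAGAC stood for the SMAD proteins that carry TGF-beta signals.
Tnc (chr4:64047016-64047265, - strand): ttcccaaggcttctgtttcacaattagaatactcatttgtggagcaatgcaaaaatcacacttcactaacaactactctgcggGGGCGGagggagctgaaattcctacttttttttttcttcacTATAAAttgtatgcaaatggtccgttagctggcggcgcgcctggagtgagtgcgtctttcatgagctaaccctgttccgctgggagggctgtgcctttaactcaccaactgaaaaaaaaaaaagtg
Tnxb (chr17:34670285-34670534, + strand): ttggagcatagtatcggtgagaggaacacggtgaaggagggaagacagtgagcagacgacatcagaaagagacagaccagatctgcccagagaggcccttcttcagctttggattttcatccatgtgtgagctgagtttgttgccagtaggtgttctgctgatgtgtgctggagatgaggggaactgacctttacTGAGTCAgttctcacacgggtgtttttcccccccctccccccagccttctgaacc
Thbs4 (chr13:92794819-92795068, - strand): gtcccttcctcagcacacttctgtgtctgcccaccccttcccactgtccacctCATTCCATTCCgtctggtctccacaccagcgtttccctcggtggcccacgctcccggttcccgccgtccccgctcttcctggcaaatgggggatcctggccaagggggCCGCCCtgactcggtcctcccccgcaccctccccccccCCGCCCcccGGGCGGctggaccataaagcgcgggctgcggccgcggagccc

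The Tnc window held 1 match to TATAAA, 126 to 121 bases before the start, and 1 GC box. RefSeq lists another Tnc start 79 bases downstream, from which the same TATAAA letters lie 205 to 200 bases before. The Tnxb window held 1 AP-1 match, and the Thbs4 window 3 GC boxes and 2 TEAD matches that overlap by 1 base. Over 32851 promoter windows of the same length, 12.4% held TATAAA, 32.7% a GC box, 6.75% an AP-1 match and 12.6% a TEAD match. E-box and SMAD letters were found in 6.02% and 0.167% of windows and in none of the 3 shown. The windows contained 44.8% (Tnc), 52.4% (Tnxb) and 70.8% (Thbs4) G and C. A match describes letters only.

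**Figure D2:**
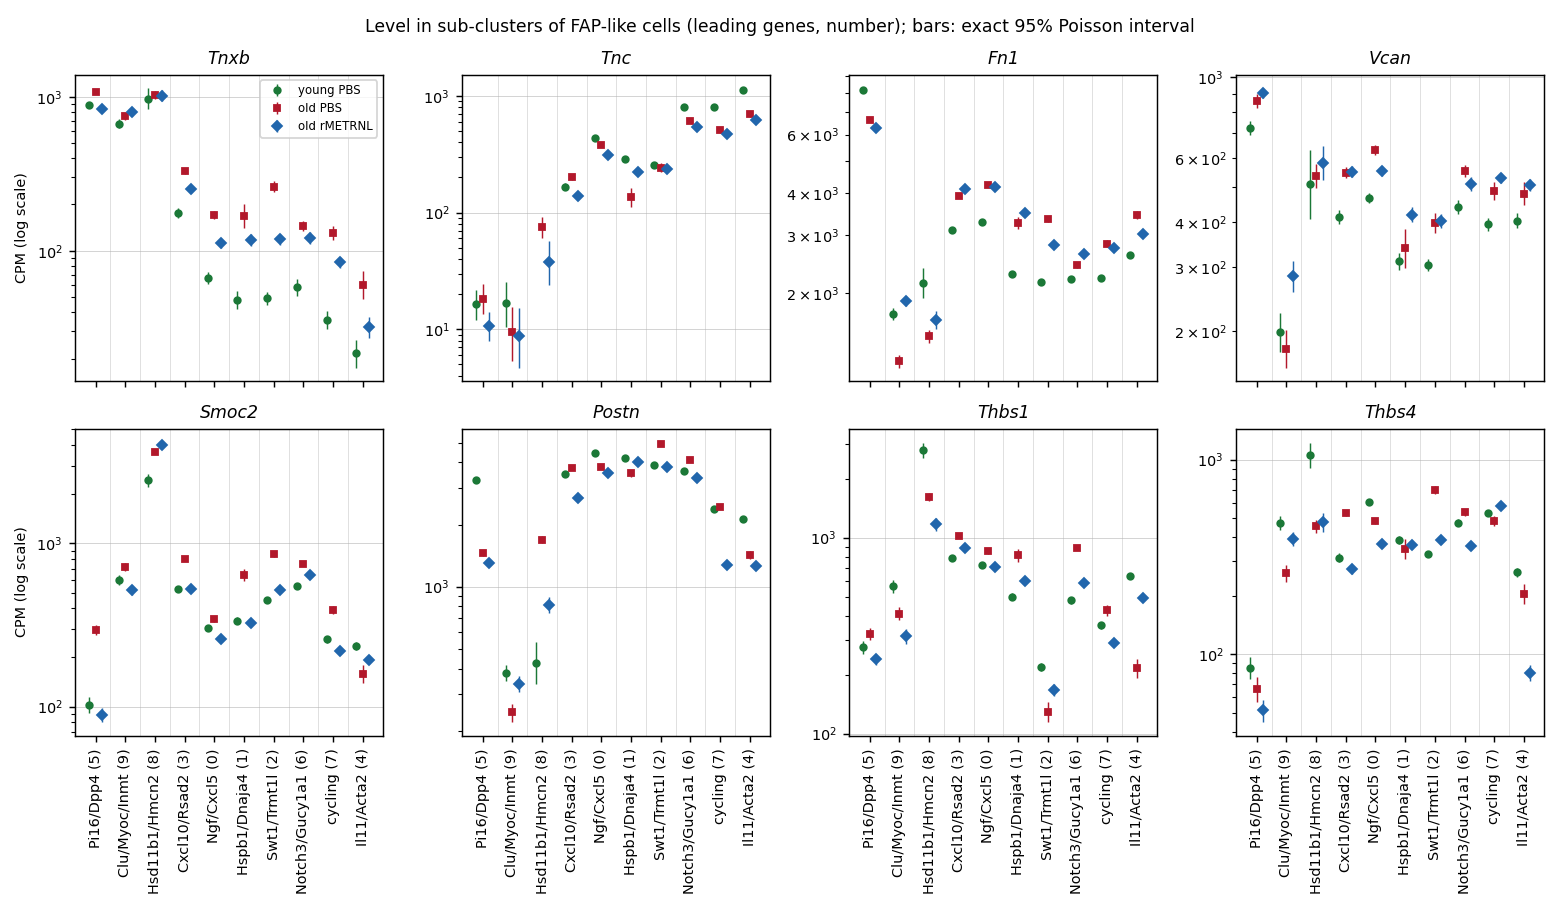
Level of 8 of the genes in 10 sub-clusters of FAP-like cells (the 9 larger ones and the Hsd11b1-led one, in 1 order in every panel), in CPM on a log axis, with 1 point per library and exact 95% Poisson intervals. The 3 sub-clusters at the left have the highest Tnxb and the lowest Tnc, Fn1 and Vcan peak in the Pi16/Dpp4-like sub-cluster, and Smoc2 peaks in the Hsd11b1-led sub-cluster, which has 13 cells in young PBS and no Tnc point there (0 UMIs).

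Over all FAP-like cells Tnxb had the largest old/young ratio of the 10 genes. It was at 136 CPM in the young library, 340.3 in the old PBS library and 228 in the old rMETRNL library, with old PBS above both others. Its old/young ratio was 2.51 (95% interval 2.43 to 2.59), its rMETRNL/PBS ratio 0.671 (0.653 to 0.6896) and its ratio 1.68 (1.63 to 1.74) for old rMETRNL over young PBS. The make-up of the FAP-like cells differed between libraries as well: the Pi16/Dpp4-like sub-cluster held 7.68%, 10.9% and 12.3% of them, the Inmt/Myoc/C7-like one 4.94%, 9.85% and 7.13% and the Hsd11b1-led one 0.793%, 6.61% and 2.89%. When the 9 sub-clusters were given equal weight the Tnxb old/young ratio was 1.54 and the rMETRNL/PBS ratio 0.798. Old rMETRNL over young PBS was then 1.23, no longer past 1.5-fold. Within single sub-clusters the old/young ratio ranged from 1.11 to 5.29, above 1 in 9 of 9. The lowest ratios of the 9 were in the Inmt/Myoc/C7-like and Pi16/Dpp4-like sub-clusters, which had the highest Tnxb levels of the 9.

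Tnc had the lowest old/young ratio of the 10 genes in FAP-like cells. Its level was 465 CPM in the young library, 328 in the old PBS library and 311 in the old rMETRNL library, with the young library above both old ones, and its old/young ratio was 0.705 (0.689 to 0.722), its rMETRNL/PBS ratio 0.9495 (0.925 to 0.974) and its ratio 0.6697 (0.655 to 0.684) for old rMETRNL over young PBS. The Crabp1/Il11/Inhba-like sub-cluster, where Tnc peaked, made up 7.13%, 3.09% and 9.07% of the FAP-like cells and held 23.7%, 10.4% and 23.3% of their Tnc UMIs. Given equal weight for the 9 sub-clusters, the old/young ratio of Tnc was 0.721 and the rMETRNL/PBS ratio 0.915. The 10 pericyte/smooth muscle markers, all detected, summed to 385, 215 and 269 CPM in FAP-like cells, with young PBS highest as for Tnc, and their part in the Tnc values was not tested. Tenocyte-like cells held Tnc at 276, 349 and 368 CPM, with the old libraries above the young one, and their old/young ratio was 1.26 (1.15 to 1.39).

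Sparc and Smoc2 encode calcium-binding proteins of the SPARC family, of which SPARC (osteonectin) binds collagen during its assembly. Sparc (ENSMUSG00000018593, chromosome 11, 55394500 to 55423183, minus strand) was nearly level between the libraries in FAP-like cells, at 8783 CPM in the young library, 8965 in the old PBS library and 8788 in the old rMETRNL library, with an old/young ratio of 1.02 (1.02 to 1.03) and an rMETRNL/PBS ratio of 0.9803 (0.975 to 0.985). Across the 9 sub-clusters its highest level was 1.59 to 1.83 times its lowest. Sparc was made in many classes. Tenocyte-like cells had 11696, 8267 and 10679.8 CPM and pericyte/smooth muscle-like cells 5929, 3471 and 3412 CPM. Endothelial-like cells had 4637, 3139 and 4257 CPM and MuSC/myoblast-like cells, the muscle stem cells with their offspring, 724, 770.2 and 626 CPM. In each of tenocyte-like, pericyte/smooth muscle-like and endothelial-like cells young PBS was the highest library. Their old/young ratios were 0.707 (0.695 to 0.719), 0.585 (0.555 to 0.617) and 0.677 (0.666 to 0.688), respectively. In the pericyte/smooth muscle-like cells the FAP marker list summed to 6914, 3509.8 and 4400.1 CPM (11 of 12 markers detected) and the collagens Col1a1, Col1a2 and Col3a1 to 4949.6, 1852 and 2799.7 CPM, both highest in young PBS as Sparc was. In the endothelial-like cells the macrophage/monocyte list summed to 510.3, 1036 and 945 CPM, the mature fibre list to 31.02, 321 and 73.5 CPM, and the median depth was 11276, 3912 and 7282 UMIs. The tenocyte-like cells had the macrophage/monocyte sums given for Fn1. The part of these values in the Sparc ratios was not tested.

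Smoc2 (ENSMUSG00000023886, chromosome 17, 14279506 to 14404790, plus strand) was higher in the old PBS library than in both others. In FAP-like cells it was at 376 CPM in the young library, 707 in the old PBS library and 389 in the old rMETRNL library, with an old/young ratio of 1.88 (1.84 to 1.92), an rMETRNL/PBS ratio of 0.551 (0.5397 to 0.562) and a ratio of 1.03 (1.01 to 1.06) for old rMETRNL over young PBS. With every cell thinned to 2000 UMIs, 44.3%, 57.1% and 42.4% of FAP-like cells had a Smoc2 UMI, against 1.47%, 0.538% and 0.862% of T/NK-like cells, which should lack it. Unthinned, the FAP-like shares were 89.4%, 88.1% and 80.2% at the median depths given above, and the T/NK-like shares 3.83%, 2.14% and 0.8% at median depths of 5810, 6047 and 5086 UMIs. The Hsd11b1-led sub-cluster had the highest Smoc2, at 2435, 3616 and 3998 CPM from 13, 90 and 49 cells, and held 2.44%, 21.7% and 14.2% of the Smoc2 UMIs of the FAP-like cells. Without it the old/young ratio was 1.57 and the rMETRNL/PBS ratio 0.586, and with equal weight for the 9 larger sub-clusters they were 1.48 and 0.662. The Pi16/Dpp4-like sub-cluster, the highest of the 9 larger ones for Tnxb and Fn1, was low in Smoc2, at 102, 295 and 89.4 CPM. The 10 mature fibre markers, all detected, summed to 26.2, 106 and 54.8 CPM in FAP-like cells, highest in old PBS like Smoc2 and Tnxb, and their part in those values was not tested.

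The 3 thrombospondins differed in how far they were concentrated in tenocyte-like cells, most for Thbs4 and least for Thbs1. Thrombospondin-1 and thrombospondin-2 are trimers that bind CD47 and CD36 and restrain vessel growth, and thrombospondin-4 is a pentamer of tendon and muscle attachment sites. Thbs4 (ENSMUSG00000021702, chromosome 13, 92751590 to 92794818, minus strand) was at 11756 CPM in the young library, 10036 in the old PBS library and 10065 in the old rMETRNL library in tenocyte-like cells and at 408, 455 and 327 CPM in FAP-like cells. Tenocyte-like cells had an old/young ratio of 0.854 (0.8401 to 0.867) and an rMETRNL/PBS ratio of 1.003 (0.986 to 1.02). In FAP-like cells these ratios were 1.12 (1.09 to 1.14) and 0.719 (0.703 to 0.736), and the old/young ratio turned to 0.8002 when FAP-like cells were instead gated by Pdgfra UMIs without Ptprc or Pecam1. The tenocyte marker list summed to 84.7, 73.5 and 97.4 CPM in FAP-like cells, whose part in the Thbs4 level there was not tested. The Pi16/Dpp4-like sub-cluster had the least Thbs4, 85.2, 66.1 and 51.4 CPM.

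Thbs2 (ENSMUSG00000023885, chromosome 17, 14665500 to 14694235, minus strand) was also highest in tenocyte-like cells, at 859.5 CPM in the young library, 962 in the old PBS library and 989.9 in the old rMETRNL library, and was steady in FAP-like cells, at 381, 391 and 359.6 CPM. Its FAP-like old/young ratio was 1.03 (1.001 to 1.05) and its rMETRNL/PBS ratio 0.9203 (0.899 to 0.943). Across the 9 FAP-like sub-clusters it varied little, with the highest 1.36 to 1.605 times the lowest.

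Thbs1 (ENSMUSG00000040152, chromosome 2, 118111876 to 118127133, plus strand) was spread over FAP-like, tenocyte-like, pericyte/smooth muscle-like and macrophage/monocyte-like cells. It was at 506 CPM in the young library, 732 in the old PBS library and 503 in the old rMETRNL library in FAP-like cells, where old PBS stood above both others, and at 942, 787 and 856 CPM in tenocyte-like and 701, 792 and 781 CPM in pericyte/smooth muscle-like cells. The FAP-like old/young ratio was 1.45 (1.42 to 1.47), the rMETRNL/PBS ratio 0.687 (0.674 to 0.7001) and the ratio 0.994 (0.976 to 1.01) for old rMETRNL over young PBS. With equal weight for the 9 sub-clusters the old/young ratio was 1.12, and within sub-clusters it ran from 0.338 (Crabp1/Il11/Inhba-like) to 1.85 (Notch3/Gucy1a1-led). Among the 9, the inflammatory-like sub-cluster led by Cxcl10 and Rsad2 had the most Thbs1, 784, 1018 and 884 CPM, and the Swt1-led sub-cluster the least, 219, 129 and 167 CPM. The smaller Hsd11b1-led sub-cluster exceeded all 9 in each library, with 2792, 1607 and 1166 CPM.

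Versican, a large chondroitin sulphate proteoglycan that binds hyaluronan, was higher in both old libraries. Vcan (ENSMUSG00000021614, chromosome 13, 89655312 to 89742509, minus strand) was at 402 CPM in the young library, 543 in the old PBS library and 536 in the old rMETRNL library in FAP-like cells, and its old/young ratio was 1.35 (1.32 to 1.38), its rMETRNL/PBS ratio 0.988 (0.968 to 1.01) and its ratio 1.34 (1.31 to 1.36) for old rMETRNL over young PBS. This last ratio was above 1 in 9 of 9 sub-clusters, within 1.16 to 1.42. The Pi16/Dpp4-like sub-cluster again had the most, 726, 859.5 and 902 CPM, and the Inmt/Myoc/C7-like one the least, 199, 179 and 283 CPM. MuSC/myoblast-like cells held a lower, even level of 92.6, 92.7 and 98.4 CPM. Endothelial-like cells were at 10.6, 9.57 and 15.2 CPM.

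Counted over the 10 genes in FAP-like cells, 2 had an old/young ratio of at least 1.5 (Tnxb and Smoc2) where 6.01% of the 13034 genes with at least 100 UMIs did, and 0 were at least 1.5-fold lower where 5.40% were. By the rMETRNL/PBS ratio 0 members were higher (all genes 3.64%) and 1, Smoc2, was lower (all genes 3.89%). In old rMETRNL against young PBS, 1 was higher, Tnxb (all genes 2.77%), and 0 were lower (all genes 3.31%). That Tnxb call was lost with equal weight for the sub-clusters, as given above. At any size, 8 of the 10 had an old/young ratio above 1, with a median log2 ratio of 0.22 against -0.04 over all genes, and 9 of the 10 had an rMETRNL/PBS ratio below 1, with a median of -0.25 against 0.02. The old/young and rMETRNL/PBS ratios share the old PBS library, so that an error in that library moves them in opposite directions. Old rMETRNL over young PBS does not use it, and there the median was -0.0040 against -0.0065, with 5 members above 1 and 5 below. Several of these ratios lay close to 1: under at least 1 other processing the old/young ratio of Sparc, Thbs2 and Thbs4 and the rMETRNL/PBS ratio of Fn1, Sparc and Vcan crossed it. For old rMETRNL over young PBS so did Sparc, Thbs1 and Smoc2.

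**Figure D3:**
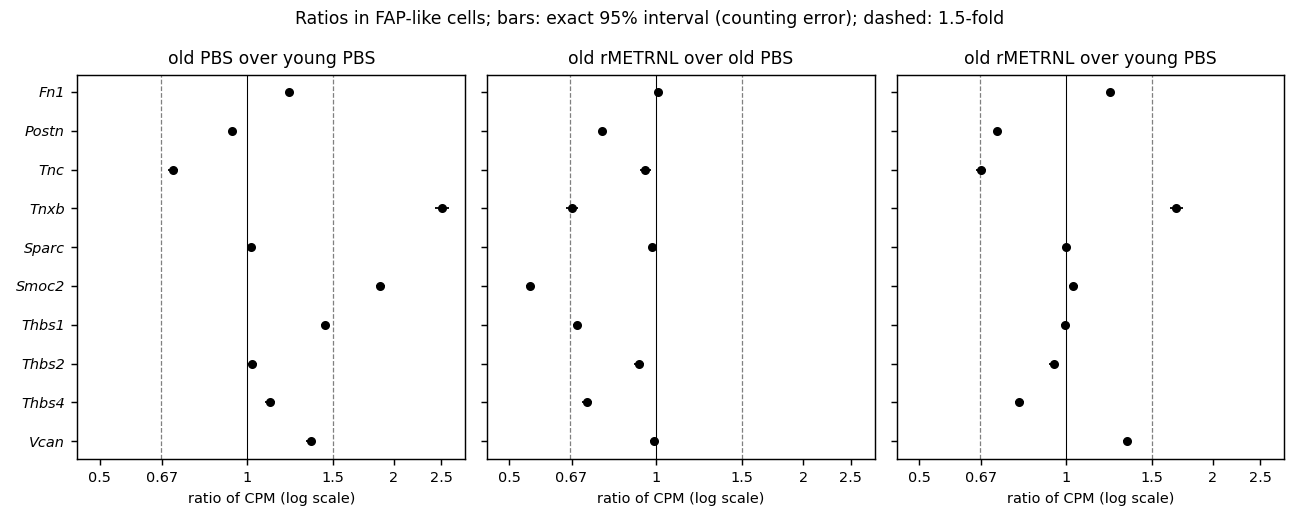
Ratio of CPM between libraries for the 10 genes in FAP-like cells, on a log axis, for the 3 pairs of libraries, with exact 95% intervals (counting error) as bars, most of them narrower than the points, and dashed lines at 1.5-fold. Tnxb and Smoc2 lie past the upper line for old PBS over young PBS, and Smoc2 past the lower line for old rMETRNL over old PBS, at 0.551.

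The direction of a difference was also read within each of the 9 FAP-like sub-clusters. The old/young ratio of Tnxb was above 1 in 9, and those of Smoc2 and Vcan in 8 of them. These 3 were the members above 1 in at least 8 of 9, as were 12.7% of the 8329 genes with at least 1000 UMIs, and 0 members were below 1 in that many (all genes 10.4%). The rMETRNL/PBS ratio of Tnc, Tnxb and Smoc2 was below 1 in 8 of 9 (all genes 9.24%), and 0 were above 1 in at least 8 (all genes 8.07%). In old rMETRNL over young PBS, Fn1, Tnxb and Vcan were above 1 in at least 8 of 9 (all genes 9.54%), and Tnc and Postn were below 1 in 9 of 9 (all genes 8.10%). The sub-clusters come from the same libraries and are not replicates. The matrix collagens Col1a1, Col1a2 and Col3a1 were used as a reference for matrix-making cells and summed to 33850.3, 33869.7 and 31714 CPM in FAP-like cells. Ptprc, Lyz2, Cd68 and C1qa, the reference for macrophage RNA, summed to 132, 148 and 161 CPM there, and the whole macrophage/monocyte marker list, with all 12 markers detected, to 446, 356 and 410.4 CPM. The part of that RNA in the FAP-like values was not tested.

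Macrophage/monocyte-like cells, 6058, 5627 and 6499 in number, were the main holders of Thbs1 UMIs and also carried Fn1 and Vcan. Thbs1 was at 349 CPM in the young library, 478 in the old PBS library and 341 in the old rMETRNL library, with an old/young ratio of 1.37 (1.35 to 1.39), an rMETRNL/PBS ratio of 0.714 (0.704 to 0.724) and a ratio of 0.976 (0.961 to 0.9904) for old rMETRNL over young PBS, so that old PBS stood above both others, as it did in FAP-like cells. After thinning, 29.9%, 34.05% and 27.5% of these cells had a Thbs1 UMI, against 2.94%, 6.45% and 4.31% of T/NK-like cells. Unthinned, the shares were 53.4%, 58.2% and 52.8% at median depths of 14093.5, 14791 and 14351 UMIs, and 5.26%, 12.8% and 8.0% in T/NK-like cells. The make-up of the class differed between libraries. The sub-cluster led by Fbxo32 and Gpnmb was 5.89%, 16.2% and 6.83% of its cells and held 10.3%, 23.6% and 8.58% of its Thbs1 UMIs, and the one led by Gm26917 and Hes1 was 20.8%, 5.22% and 11.7% of its cells and held 3.33%, 0.214% and 2.01% of those UMIs. Within the 12 sub-clusters the old/young ratio of Thbs1 ran from 0.468 to 1.65, above 1 in 8 and below 1 in 4, and the rMETRNL/PBS ratio from 0.6498 to 2.35, above 1 in 5 and below 1 in 7. The part of the make-up in the class ratios was not tested.

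Levels of the members in these cells had to be read against free RNA, since droplets also capture transcripts released by broken cells. The 3 collagens summed to 115, 111 and 119.6 CPM in macrophage/monocyte-like cells. A transcript that reached them together with the collagens from FAP-like cells would keep the ratio to collagen that it has in FAP-like cells, that is, a relative ratio near 1. That relative ratio was 0.985 to 1.37 for Smoc2, 0.706 to 1.12 for Tnxb, 1.19 to 1.33 for Sparc, 1.21 to 1.41 for Postn, 1.27 to 1.31 for Thbs2 and 1.53 to 1.93 for Tnc over the 3 libraries. It was 179.6 to 203 for Thbs1, 6.58 to 7.54 for Fn1, 3.91 to 5.36 for Vcan and 4.103 to 4.93 for Thbs4. The measure takes FAP-like cells as the source, whereas Thbs4 was mainly in tenocyte-like cells, where its relative ratio was 26.4 to 28.5. Free RNA from tenocyte-like cells would thus also lie above 1 for Thbs4. In T/NK-like cells it was 3.07 to 5.05 for Thbs4, in the range of that in macrophage/monocyte-like cells, but 3.22 to 13.02 for Thbs1, 1.48 to 1.76 for Fn1 and 0.624 to 0.846 for Vcan. In dendritic-like cells it was 13.8 to 23.4 for Thbs1, 2.92 to 3.96 for Fn1, 3.73 to 6.296 for Thbs4 and 1.12 to 1.66 for Vcan. The part of free RNA in these levels was not tested.

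By the same 1.5-fold count, 2 members were higher by the old/young ratio in macrophage/monocyte-like cells, Tnxb and Smoc2 (all genes 5.06%), and 0 were lower (all genes 5.75%). Both were scarce, Tnxb at 0.326, 0.871 and 0.961 CPM (31, 81 and 103 UMIs) and Smoc2 at 1.26, 3.17 and 1.54 CPM (120, 295 and 165 UMIs), beside 1, 2 and 1 Tnxb UMIs (0.588, 1.25 and 1.11 CPM) and 8, 4 and 1 Smoc2 UMIs (4.704, 2.497 and 1.11 CPM) in T/NK-like cells. By the rMETRNL/PBS ratio 1 member was higher, Vcan (all genes 4.55%), and 1 was lower, Smoc2 (all genes 2.85%). Against young PBS, old rMETRNL had 2 members higher, Vcan and Tnxb (all genes 2.90%), and 0 lower (all genes 1.42%). With cells thinned to 2000 UMIs the Tnxb call was lost, its ratio falling from 2.95 to 1.07, and the rMETRNL/PBS ratio of Tnxb turned from 1.103 to 0.4601.

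Thbs1 and Vcan both peaked in monocyte sub-clusters of the macrophage/monocyte-like cells. The sub-cluster led by Ly6c2, F10 and Plac8, genes of recently recruited monocytes, had 1013, 1287 and 1254 CPM of Thbs1, and 25.8 to 656 CPM were found over the other 11 sub-clusters. It was 13.4%, 12.6% and 15.7% of the macrophage/monocyte-like cells and held 27.95%, 25.2% and 38.9% of their Thbs1 UMIs. Sub-clusters with low Thbs1 included those led by Ccl8 and Clec10a (44.7, 27.4 and 34.2 CPM) and by Cd209f and Vsig4 (25.8, 42.6 and 51.7 CPM), genes of resident macrophages. They were not the only low ones. In old PBS the sub-cluster led by Gm26917 and Hes1 was 5.22% of the cells and held 0.214% of the Thbs1 UMIs. The one led by Ifitm10 was 2.20% and held 0.180% there. Inside the Ly6c2-led sub-cluster the Thbs1 old/young ratio was 1.27 (1.24 to 1.31) and the rMETRNL/PBS ratio 0.975 (0.951 to 0.999), both closer to 1 than over the whole class.

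Vcan was at 6.25 CPM in the young library, 6.98 in the old PBS library and 10.9 in the old rMETRNL library over all macrophage/monocyte-like cells, with an old/young ratio of 1.12 (0.997 to 1.25), an rMETRNL/PBS ratio of 1.55 (1.41 to 1.71) and a ratio of 1.74 (1.57 to 1.92) for old rMETRNL over young PBS. Among the sub-clusters, 2 stood out. The Ly6c2-led one had 28.6, 37.7 and 57.4 CPM and the one led by the interferon-response genes Ifit1bl1 and Rsad2 had 29.8, 54.5 and 51.1 CPM, while the other 10 ranged from 0 to 5.38 CPM. In the Ly6c2-led sub-cluster the old/young ratio was 1.32 (1.12 to 1.56) and the rMETRNL/PBS ratio 1.52 (1.33 to 1.74). In the interferon-led sub-cluster, with 276, 48 and 303 cells, they were 1.83 (1.23 to 2.68) and 0.937 (0.661 to 1.36), the latter interval including 1. Fn1 in macrophage/monocyte-like cells was at 74.02, 86.1 and 88.2 CPM, between 19.4 and 167 CPM over the 12 sub-clusters.

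**Figure D4:**
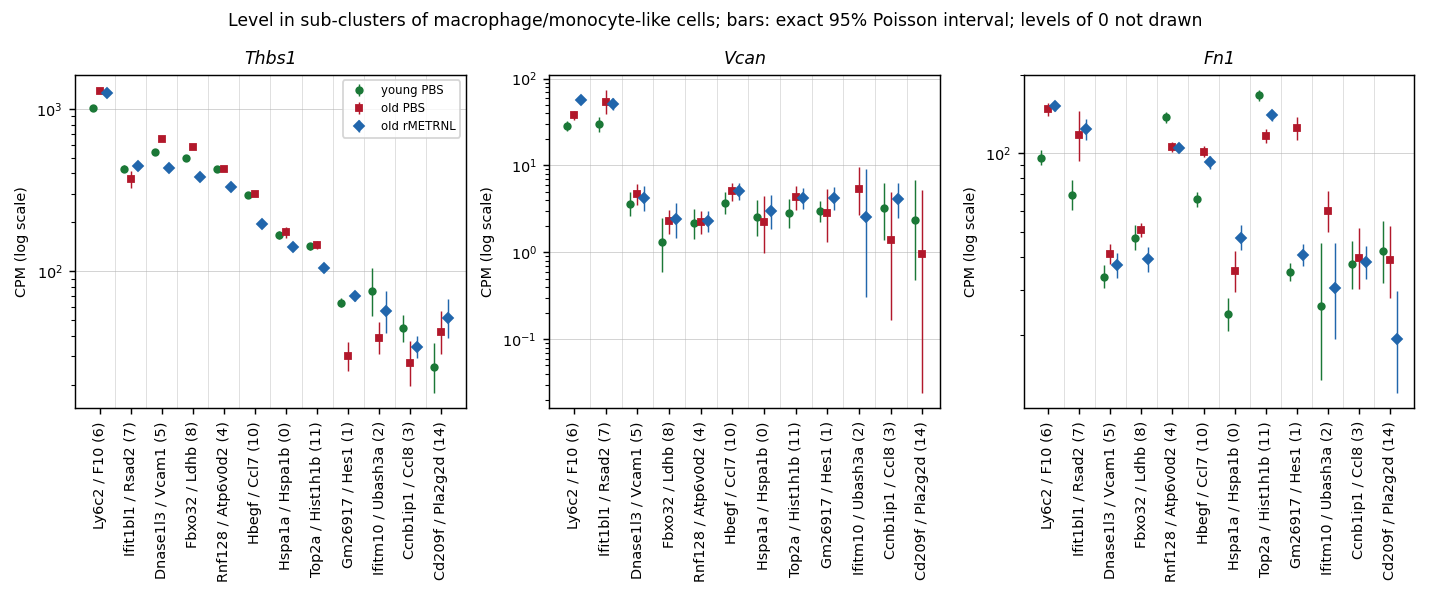
Level of Thbs1, Vcan and Fn1 in 12 sub-clusters of macrophage/monocyte-like cells, named by their leading genes, in CPM on a log axis, with 1 point per library and exact 95% Poisson intervals. Thbs1 is highest in the Ly6c2/F10 sub-cluster, at 1013 to 1287 CPM, and Vcan is highest in the Ly6c2/F10 and Ifit1bl1/Rsad2 sub-clusters.

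Most levels in other classes not given above were lower than in FAP-like cells. Fn1 was at 149, 87.97 and 117 CPM in endothelial-like and 266, 80.1 and 261 CPM in pericyte/smooth muscle-like cells, with old PBS the lowest library in both. In the pericyte/smooth muscle-like cells the FAP marker list and the collagen sum, given for Sparc, were also lowest in old PBS, and their part in the Fn1 level was not tested. Tnc was at 41.5, 15.3 and 40.7 CPM in endothelial-like cells, lowest in old PBS, with an old/young ratio of 0.368 (0.293 to 0.458) and an rMETRNL/PBS ratio of 2.67 (2.15 to 3.34), and its collagen-relative ratio there was 6.897 to 26.1. The class joins a cluster led by Cldn5 and Gpihbp1 (486, 802 and 811 cells) with a deeper one led by Selp, Sele and Ackr1 (155, 124 and 164 cells). Its depth and its mature fibre and macrophage/monocyte sums moved as given for Sparc, and the part of these values in the Tnc and Fn1 levels was not tested. Thbs1 was at 116, 109.8 and 109 CPM in endothelial-like and 101, 73.7 and 117 CPM in MuSC/myoblast-like cells. Tnxb was at 102, 219 and 271 CPM in tenocyte-like cells, where the old/young ratio of 2.14 (1.88 to 2.45) had the direction seen in FAP-like cells, and at 38.7, 78.3 and 65.2 CPM in pericyte/smooth muscle-like cells. Smoc2 had 0 UMIs in pericyte/smooth muscle-like cells of old rMETRNL, which allows up to 5.76 CPM (3 UMIs), beside 20.6 CPM in young PBS and 6.96 CPM in old PBS. In dendritic-like cells every member was at or below 51.5 CPM, and in T/NK-like cells Sparc was the highest at 95.2, 74.9 and 64.2 CPM.

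Of the 10 genes, 5 had the same highest class of the 8 in all 3 libraries, Postn, Vcan and Smoc2 in FAP-like cells and Thbs2 and Thbs4 in tenocyte-like cells. This count was 8 at a clustering resolution of 0.4. For the other 5 the highest class changed between libraries. These were Fn1, Tnc, Sparc and Tnxb, which alternated between FAP-like and tenocyte-like cells, and Thbs1, which alternated between tenocyte-like and pericyte/smooth muscle-like cells. For Tnc in old PBS, and for Thbs1 in old PBS and old rMETRNL, the intervals of the highest and the next class overlapped. Among the 9 larger FAP-like sub-clusters, leaving out the Hsd11b1-led one, 5 genes had 1 highest sub-cluster in all 3 libraries, Fn1, Vcan and Tnxb in the Pi16/Dpp4-like, Tnc in the Crabp1/Il11/Inhba-like and Thbs1 in the inflammatory-like sub-cluster. For Tnxb in old rMETRNL the interval of the Pi16/Dpp4-like sub-cluster overlapped that of the Inmt/Myoc/C7-like one. The share of all genes that meet these rules was not computed, so neither count says how the members compare with other genes.

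The proteases that cut or remodel these proteins were mostly higher in old PBS than in young PBS. Of 24 listed genes (matrix metalloproteinases, ADAMTS proteases and others), 22 had at least 100 UMIs in FAP-like cells. By the old/young ratio there were 9 at least 1.5-fold higher and 1 lower (all genes 6.01% and 5.40%), and 21 of 22 were above 1, with a median log2 ratio of 0.49 (all genes -0.04). Adamts4, a versican-cleaving aggrecanase, was at 89.2 CPM in the young library, 206 in the old PBS library and 117 in the old rMETRNL library, and its old/young ratio was 2.31 (2.22 to 2.4). Mmp3 (stromelysin-1) was at 53.8, 118 and 93.5 CPM, with an old/young ratio of 2.19 (2.08 to 2.31). The lowest ratios were those of Mmp9, a gelatinase, at 0.584 (0.523 to 0.653), and Htra1, a serine protease, at 1.09 (1.06 to 1.12). The mature fibre sum and the share of the Hsd11b1-led sub-cluster, given with Smoc2 and Tnxb, were also highest in old PBS, and their part in the ratios of the listed genes was not tested.

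In the other direction, 21 of the 22 proteases had an rMETRNL/PBS ratio below 1. There were 0 at least 1.5-fold higher and 3 lower (all genes 3.64% and 3.89%), and the median log2 ratio was -0.27 (all genes 0.02). Adamts8 had the lowest ratio, 0.443 (0.306 to 0.635), at levels of 1.61, 2.66 and 1.18 CPM. Mmp13, a collagenase, followed with 0.457 (0.401 to 0.5195), at 9.07, 19.7 and 8.99 CPM. The highest were Mmp9 at 1.16 (1.03 to 1.31) and Htra1 at 0.927 (0.902 to 0.953). The comparison of old rMETRNL with young PBS, which leaves the old PBS library out, had 3 at least 1.5-fold higher and 0 lower (all genes 2.77% and 3.31%) and a median of 0.07 (all genes -0.0065). Mmp3 at 1.74 (1.65 to 1.83) and Mmp12 at 1.68 (1.203 to 2.38) were highest there, and Mmp9 at 0.681 (0.6199 to 0.747) and Adamts8 at 0.733 (0.503 to 1.06) lowest. Mmp12 was also among the leading genes of macrophage/monocyte-like clusters, and the part of macrophage RNA in its ratio was not tested.

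Receptors of the members were mostly within 1.5-fold. Of 27 listed integrins, syndecans, scavenger receptors and others 24 were measured in FAP-like cells. By the old/young ratio there were 3 at least 1.5-fold higher and 0 lower (all genes 6.01% and 5.40%). By the rMETRNL/PBS ratio there were 0 at least 1.5-fold higher and 1 lower (all genes 3.64% and 3.89%), and for old rMETRNL against young PBS 1 at least 1.5-fold higher and 2 lower (all genes 2.77% and 3.31%). Their median log2 ratios were 0.21, -0.12 and 0.15, against -0.04, 0.02 and -0.0065 over all genes. Cd36, a thrombospondin receptor, was at 3.49, 7.401 and 5.15 CPM with an old/young ratio of 2.12 (1.72 to 2.62) and an rMETRNL/PBS ratio of 0.696 (0.576 to 0.841). Selp, P-selectin, had levels of 3.46, 5.76 and 2.11 CPM, and its old/young ratio was 1.66 (1.33 to 2.07) where its rMETRNL/PBS ratio was 0.367 (0.282 to 0.474). Both genes mark other cell types more than FAPs and had few UMIs here. The endothelial marker list summed to 104, 117 and 88.3 CPM in FAP-like cells, and its part in these values was not tested. Itga8, an integrin subunit that helps bind fibronectin and tenascin-C, had the lowest old/young ratio, 0.674 (0.518 to 0.8695), followed by Ilk, integrin-linked kinase, at 0.716 (0.684 to 0.749). The highest rMETRNL/PBS ratios were those of Stab1, a scavenger receptor for SPARC, at 1.32 (1.04 to 1.702) and Sdc4, a fibronectin co-receptor, at 1.28 (1.22 to 1.34). In old rMETRNL against young PBS, Itgb3 at 1.51 (1.34 to 1.69) and Cd36 at 1.48 (1.201 to 1.82) were highest and Itga8 at 0.517 (0.402 to 0.661) and Selp at 0.609 (0.466 to 0.792) lowest.

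Other matricellular and related glycoproteins numbered 33, of which 26 were measured. By the old/young ratio there were 5 at least 1.5-fold higher and 3 lower (all genes 6.01% and 5.40%), and the median log2 ratio was 0.20 (all genes -0.04). Fbln7 (fibulin-7) had the highest ratio, 2.28 (2.13 to 2.44). Sparcl1 (hevin), a relative of Sparc, was at 267 CPM in the young library, 526 in the old PBS library and 255 in the old rMETRNL library, with an old/young ratio of 1.97 (1.92 to 2.01) and an rMETRNL/PBS ratio of 0.485 (0.473 to 0.497), so that it was highest in old PBS, as Smoc2 was. Smoc1, the paralog of Smoc2, was lowest by the old/young ratio, at 0.368 (0.283 to 0.474) from levels of 6.88, 2.53 and 3.06 CPM. Tnn (tenascin-N), another tenascin, had levels of 18.6, 9.01 and 17.7 CPM, next lowest by the old/young ratio at 0.483 (0.4204 to 0.555) and next highest by the rMETRNL/PBS ratio at 1.97 (1.71 to 2.27). The rMETRNL/PBS ratio gave 2 at least 1.5-fold higher and 6 lower (all genes 3.64% and 3.89%) and a median of -0.24, with Spock2 at 0.525 (0.443 to 0.623) next to Sparcl1 at the low end and Spp1 (osteopontin) highest at 2.04 (1.94 to 2.15). Spp1 was also among the leading genes of macrophage/monocyte-like clusters. Ptprc, Lyz2, Cd68 and C1qa summed to 132, 148 and 161 CPM in FAP-like cells, and the part of macrophage RNA in the Spp1 ratio was not tested. Old rMETRNL against young PBS had 0 at least 1.5-fold higher and 3 lower (all genes 2.77% and 3.31%) and a median of -0.08, with Efemp1 at 1.49 (1.45 to 1.54) and Fbn1 at 1.32 (1.31 to 1.34) highest and Smoc1 at 0.445 (0.361 to 0.546) and Comp at 0.617 (0.591 to 0.644) lowest.

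The genes with the pattern most like each member were found by Pearson's r of log2(CPM + 10) over 24 points, the 8 classes in each of 3 libraries, among 12107 genes. The points share libraries and depth, and no p is given. For Fn1 these were Colec12 (0.981), Mmp2 (0.976), Vkorc1 (0.974), for Postn Fap (0.991), Ndn (0.991), Adamts2 (0.991), for Tnc Kdelr3 (0.993), Pcolce (0.988), Bmp1 (0.981) and for Tnxb Sod3 (0.982), Gfpt2 (0.9801), C1ra (0.9799). For Sparc they were Npdc1 (0.9901), Mageh1 (0.986), Ppic (0.984), and for Smoc2 Dpt (0.988), Col14a1 (0.987), Cxcl14 (0.986). The thrombospondins gave Cd302 (0.949), Itgb5 (0.942), Pmp22 (0.942) for Thbs1, Twist1 (0.994), Col16a1 (0.992), Npas2 (0.99) for Thbs2 and Fbln7 (0.992), Pamr1 (0.991), Nkd2 (0.989) for Thbs4. Vcan was most like Slc43a1 (0.973), Gxylt2 (0.962), Tpbg (0.958). Thbs1 had the lowest values of the 10.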

How the data were processed

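Raw UMI counts per gene and barcode were deposited for 3 libraries. The authors made these counts with Cell Ranger on the mm10 build. The file headers give version 5.0.0, the submitters' processing notes list 5.0.0 and 3.1.0, and the study's methods name another version. The annotation release was not given in the sources used here. Coordinates are from GENCODE M21 on GRCm38, matched by gene ID, and promoters from RefSeq on GRCm38.p6.

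A barcode was retained if it had 500 or more genes and less than 10% of its UMIs from mitochondrial genes. Scrublet in scanpy 1.11.5 ranked likely doublets, and the top-ranked barcodes were dropped at 0.8% per 1000 barcodes. After scaling each cell to 10000 UMIs and taking logs, clusters came from 2000 variable genes (none of them a member), 30 principal components, 20 neighbours and the Leiden method at resolution 0.8, without integration. They were named from marker lists, and both the FAP-like and the macrophage/monocyte-like class were divided once more. UMIs were then summed per class and library. Levels carry exact 95% Poisson intervals, ratios the exact 95% interval of 2 counts given their sum, and a gene counted as different past 1.5-fold.

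The members and gene lists were chosen with earlier results of these data known. Listed genes are named by a rule, the 2 highest and 2 lowest ratios per list and comparison among genes with at least 100 UMIs. The ratio script was tested on simulated data. The alternatives tried were other cell filters, resolutions, clustering genes, doublet calls, scalings and cell weights, thinning to 2000 UMIs, and a gate on Pdgfra. Clustering ran with the Leiden routine of igraph 0.11.9 under Python 3.11.15 and statistics with scipy 1.17.1. Tables used pandas 2.3.3, numpy 2.4.6 and anndata 0.12.19, and plots matplotlib 3.10.9.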

Additional observations from a re-analysis of the deposited data

How the results depend on the processing

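No paired analysis was possible because each group was 1 library, and for the same reason no library could be left out. Ratios of single listed genes and within sub-clusters were not recomputed. Of the members' ratios past 1.5-fold in FAP-like or macrophage/monocyte-like cells as a whole, none crossed 1 under the alternatives. In FAP-like cells the old/young ratio ranged over 1.54 to 2.57 for Tnxb and 1.48 to 2.14 for Smoc2, and the rMETRNL/PBS ratio over 0.538 to 0.662 for Smoc2, 0.661 to 0.798 for Tnxb and 0.671 to 0.845 for Thbs1. The old/young count of 2 members past 1.5-fold became 1 with equal weight for the sub-clusters, chosen after seeing the data, because the Smoc2 ratio became 1.48, and 3 with the Pdgfra gate (adding Thbs1, 1.54) and with thinning (adding Tnc, 0.666). The rMETRNL/PBS count of 1 became 2 with a looser cell filter, Leiden resolution 0.4, members allowed among the clustering genes (each adding Thbs4) and median-ratio scaling (adding Tnxb). The count of 1 for old rMETRNL over young PBS became 2 with the looser filter, library-centred clustering and thinning (each adding Tnc) and with the Pdgfra gate (adding Thbs4). With equal weight for the sub-clusters it stayed 1 but for another gene: Tnxb, at 1.23, dropped out and Tnc, at 0.6596, came in. In macrophage/monocyte-like cells thinning took the rMETRNL/PBS count from 2 to 4 (adding Tnc, 1.5, and Tnxb, which turned from 1.103 to 0.4601) and that of old rMETRNL over young PBS from 2 to 1 (Tnxb, from 2.95 to 1.07). That count was 3 at Leiden resolution 0.4 and with doublet calls kept, where Fn1 reached 1.56 and 1.55. At Leiden resolution 0.4 the number of members with 1 highest class rose from 5 to 8. Among receptors, a minimum of 30 UMIs took the old/young count of lower genes from 0 to 1 and the rMETRNL/PBS count of higher genes from 0 to 1. A minimum of 1000 UMIs took the old/young count of higher genes from 3 to 1, the rMETRNL/PBS count of lower genes from 1 to 0 and that of lower genes for old rMETRNL over young PBS from 2 to 0. Each list holds fewer genes at the higher minimum and more at the lower. The cause of the other shifts was not tested. The alternative doublet threshold and the FAP-like cells without the Hsd11b1-led sub-cluster were also chosen after seeing the data. Depth limits the scarce members in macrophage/monocyte-like cells, such as Tnxb with 31, 81 and 103 UMIs.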
